A study of Mus musculus with 3 samples.

Results

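Of 8251 genes read by an array of the medial edge epithelium of the mouse palate, 37 were at least 2-fold higher 12 h after the palatal shelves were put in contact than before contact, and from there again at least 2-fold higher by 24 h. They are described here as the genes higher at both steps. The members were chosen by these same ratios: the arrays were brought to the same 2% trimmed mean, signals were raised to a floor of 13.5 (the pooled 40th percentile), and a gene was read by its brightest probe set, which is a group of short probes for one transcript. A ratio needs at least 1 of its 2 arrays above the floor, and 5951 genes had a ratio at both steps. The 37 genes are 0.622% of those.

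The tissue came from CF-1 mouse embryos at embryonic day 13.5. Epithelium without contact or culture gave the 0 h array. Shelves cultured in contact gave fused epithelium for the 12 h array and, for the 24 h array, fused epithelium labelled as undergoing epithelial-mesenchymal transformation. Dispase II, an enzyme that cleaves the basement membrane, was used to free the epithelium in all cases, and RNA was amplified before hybridization. The labels do not say how many embryos stand behind an array. Each time point had 1 array, so no value below has an error or a p-value, and contact, fusion and time in culture cannot be told apart. Both ratios of a gene also share the 12 h array. Because the membership rule used all 3 arrays, the ratios of the members are a description and support nothing further.

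The medial edge epithelium covers the tips of the palatal shelves. When opposing shelves meet, the 2 layers adhere and form a midline seam, which is then removed as cells die, migrate or change toward mesenchyme, so that the mesenchyme becomes continuous. Cells of an explant also meet wounding, enzyme treatment and altered oxygen, and epithelia answer such conditions with known programmes: interferon-stimulated genes, acute phase proteins, cell cycle inhibitors and genes induced by low oxygen. These statements are background and were not measured here.

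Deposited signals had trimmed means between 46.8 and 93.7, and scaling factors were between 0.676 and 1.36. Over all genes the median log2 ratio was -0.21 for 12 h over 0 h and 0.17 for 24 h over 12 h after this scaling. In values as deposited these medians were -0.83 and -0.12, after median centring 0.06 and -0.01, and after quantile normalization 0.07 and 0.01. Control probe sets for Gapdh gave a 3' to 5' signal ratio of 0.828, 14.9 and 12.6 at 0, 12 and 24 h, and those for Actb 1.02, 11.9 and 2.97. Both ratios were higher on the cultured arrays than at 0 h, and neither was higher at 24 h than at 12 h. The part of this difference in the ratios of the members was not tested. Epithelial markers Krt8, Krt18, Krt19, Cdh1, Epcam, Trp63, Dsp and Perp were above the floor on all 3 arrays, while the basal keratins Krt5, Krt14 and Krt15 were below it on all 3. The other 4 of the 15 epithelial markers, Cldn4, Cldn7, Jup and Sfn, were above the floor at 0 h and below it at 12 h, and Sfn stayed below it at 24 h. At 12 h 7 of the 15 were therefore at the floor, beside 3 at 0 h and 4 at 24 h.

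Among the 37 genes the log2 ratio for 12 h over 0 h ranged from 1.02 to 3.33 with a median of 1.44 (2.71-fold), and that for 24 h over 12 h from 1.08 to 2.72 with a median of 1.40. As background, the 2-fold mark was passed upward by 17.7% of 6379 genes at the first step and by 18.8% of 6141 genes at the second. Since those 2 contrasts chose the members, nothing is read from the comparison. In the measured tissue, a higher signal from more cells of a type and from more RNA per cell cannot be told apart. For 25 members all 3 arrays were above the floor, and their 24 h over 0 h ratios lay between 4.29-fold and 30.8-fold. The other 12 were at the floor at 0 h, so their first step and their 24 h over 0 h ratio are lower bounds. In 14 of the 25 measured members the first step was the larger one, and in 11 the second. Only 5 genes, Cdkn1a, Ddit4, Ndrg1, Ndrg2 and Ifit3, were at least 3-fold higher at each step, and Cdkn1a alone was at least 4-fold higher at each.

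**Figure D1:**
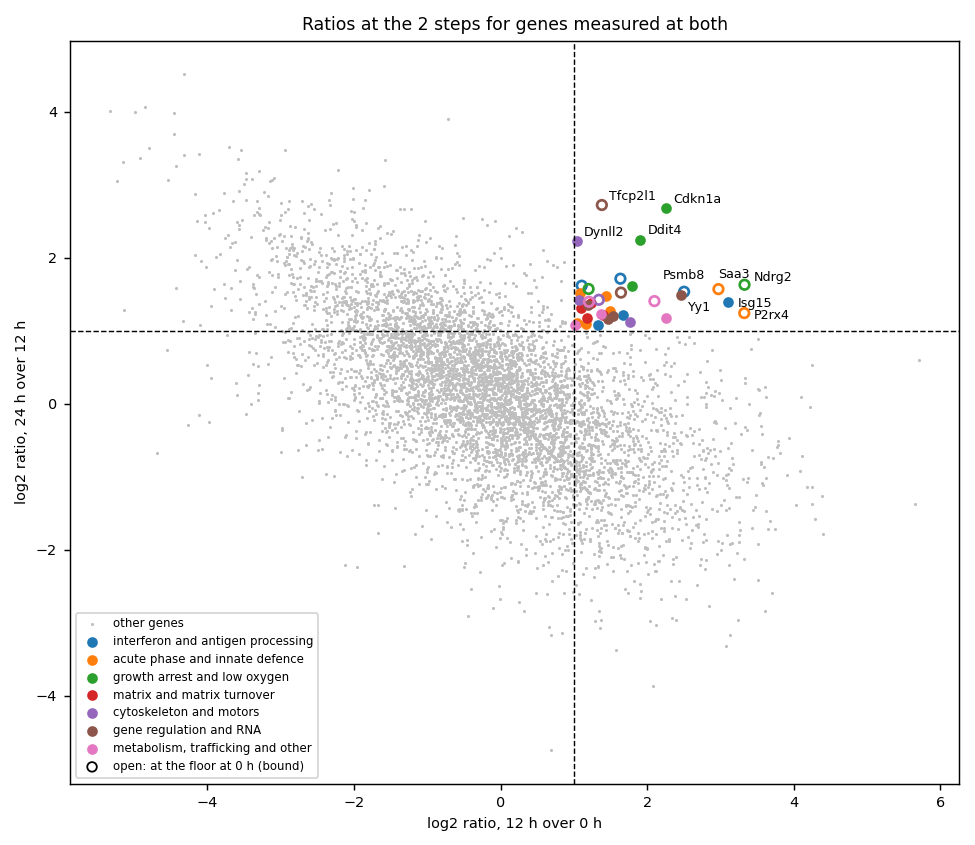
Each point is a gene measured at both steps, with the log2 ratio of 12 h over 0 h on the horizontal axis and of 24 h over 12 h on the vertical axis; dashed lines mark a 2-fold difference, colours mark the roles of the 37 members, and open symbols are the 12 members at the floor at 0 h. Cdkn1a is the only member that lies more than 1 log2 unit beyond both dashed lines.

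The scale of error can be gauged from genes with several probe sets. Around the mean of its gene, a single set had a standard deviation of 1.24 log2 units at the first step (672 genes) and of 0.82 at the second (687 genes). This spread includes real differences between transcripts. A first step close to 2-fold is therefore smaller than the usual disagreement between probe sets of 1 gene.

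Interferon-stimulated genes and genes of antigen processing made up 6 of the 37. Type I and type II interferons act through STAT and IRF factors on short promoter elements, and the genes they induce restrict viruses and prepare peptides for display. Isg15, a ubiquitin-like protein that is joined to other proteins, had scaled signals of 16.7, 144 and 379 at 0, 12 and 24 h. Its signal was 8.61-fold higher at the first step and 2.64-fold higher at the second, so the ratio was larger at the first step. Psmb8, an immunoproteasome subunit that replaces a constitutive catalytic subunit, was below the floor before contact, then gave signals of 76.7 and 222. It was at least 5.67-fold higher at the first step and 2.90-fold higher at the second. Ifit3, an antiviral tetratricopeptide-repeat protein, went from below the floor to 42.0 and 138, which is at least 3.10-fold and then 3.28-fold higher.

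Cxcl10, a chemokine that attracts activated T cells, was also below the floor before contact, then at 29.1 and 89.5, at least 2.15-fold and then 3.07-fold higher. Ly6e, a membrane-anchored protein induced by interferon, had signals of 271, 859 and 2004. Tor3a, a torsin-family ATPase first described as an interferon-responsive gene, had signals of 24.4, 61.2 and 129. Isg15, Ly6e and Tor3a were thus measured on all 3 arrays, although Isg15 at 0 h, at 16.7, was close to the floor of 13.5. Ifit3, Cxcl10 and Psmb8 have no measured level at 0 h. The other probe sets of Ly6e and Tor3a were below the floor on all arrays and gave no ratio.

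Promoters of these genes are shown because interferon-stimulated genes were members together and their regulatory elements are well characterised. The interferon-stimulated response element was searched as GAAA, any 2 bases and GAAA, on both strands of RefSeq promoter windows (GRCm38.p6, from 250 bases before to 50 after a start site). Windows existed for 27 of the 37 members, 33 windows in all. The element was present in 4 of the 33, those of Isg15, Ifit3, Cxcl10 and Saa3, or 12.1%, beside 3.44% of all 32851 windows. The 250 bases before the start site of these 4 genes are given 5′ to 3′ in the direction of transcription, with matches in capitals.
Isg15, chr4:156200819-156201068, strand minus: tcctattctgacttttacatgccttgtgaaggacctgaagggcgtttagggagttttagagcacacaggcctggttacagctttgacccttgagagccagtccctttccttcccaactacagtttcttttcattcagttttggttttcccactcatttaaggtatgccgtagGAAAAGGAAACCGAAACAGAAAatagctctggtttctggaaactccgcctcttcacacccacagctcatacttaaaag
Ifit3, chr19:34583279-34583528, strand +: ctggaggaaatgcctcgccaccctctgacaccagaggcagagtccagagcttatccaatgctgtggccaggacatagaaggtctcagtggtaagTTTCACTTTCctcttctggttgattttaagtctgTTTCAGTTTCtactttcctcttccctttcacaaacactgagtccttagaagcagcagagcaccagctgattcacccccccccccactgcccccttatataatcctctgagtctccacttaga
Cxcl10, chr5:92348890-92349139, strand minus: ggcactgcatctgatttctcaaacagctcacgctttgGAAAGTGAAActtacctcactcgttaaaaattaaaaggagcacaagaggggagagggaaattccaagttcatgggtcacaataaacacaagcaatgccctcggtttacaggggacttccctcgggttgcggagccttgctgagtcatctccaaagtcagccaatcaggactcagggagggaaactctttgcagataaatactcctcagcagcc
Saa3, chr7:46715677-46715926, strand minus: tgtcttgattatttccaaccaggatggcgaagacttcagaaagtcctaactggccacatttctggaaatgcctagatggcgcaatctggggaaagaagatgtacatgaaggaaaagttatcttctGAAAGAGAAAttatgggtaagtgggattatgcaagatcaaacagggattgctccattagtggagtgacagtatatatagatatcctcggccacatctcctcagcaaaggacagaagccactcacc

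In Isg15 the capitals cover 3 overlapping matches, the first starting 78 bases before the start site. Ifit3 holds 2 separate matches on the opposite strand, starting 156 and 122 bases before the start site, and Cxcl10 and Saa3 hold 1 each, starting 213 and 125 bases before it. The Psmb8 window has no match to that element but holds the only match among the members to the gamma-activated site, searched as TTCNNNGAA on both strands and present in 8.30% of all windows and 3.03% of member windows. It starts 97 bases before the start site and is capitalised in the 250 bases shown.
Psmb8, chr17:34197945-34198194, strand +: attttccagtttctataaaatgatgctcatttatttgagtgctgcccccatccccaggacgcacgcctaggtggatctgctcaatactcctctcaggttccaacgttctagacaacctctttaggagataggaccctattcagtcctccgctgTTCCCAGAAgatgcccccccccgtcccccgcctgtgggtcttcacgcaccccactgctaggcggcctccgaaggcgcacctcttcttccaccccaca

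A match is a description of letters and not evidence of a bound site. The element of NF-kB, searched as GGGANNNCC on both strands, was found in 13 of 33 member windows, or 39.4%, and in 18.6% of all windows. The 13 windows belong to 10 genes, among them Isg15, Cxcl10 and Bcl10, and several windows of 1 gene share sequence. For AP-1 (TGANTCA) the shares were 9.09% of member windows and 7.81% of all, and for the cyclic AMP response element (TGACGTCA) 0 of 33 and 1.79% of all. These shares were not tested.

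Acute phase and innate defence genes contributed 7 members. Saa3, a serum amyloid A protein made outside the liver, was below the floor before contact, then at 106 and 316. It was at least 7.85-fold higher at the first step and 2.97-fold higher at the second. P2rx4, an ATP-gated cation channel, was likewise below the floor and then at 135 and 321, at least 10.02-fold and then 2.37-fold higher. For both, the bound on the ratio at the first step exceeded the ratio at the second.

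Slpi, an inhibitor of leukocyte serine proteases that is secreted by epithelia, had signals of 55.4, 156 and 376. Serpina3n, a secreted serine protease inhibitor of the acute phase, had signals of 17.4, 47.2 and 132, the first of them close to the floor. Lbp, which carries bacterial lipopolysaccharide to its receptor, had signals of 36.1, 80.9 and 172. These 3 genes were each between 2.13-fold and 2.81-fold higher at each step. Bcl10, an adaptor between antigen receptors and NF-kB, had signals of 73.6, 156 and 449.7 and was 2.12-fold and then 2.88-fold higher.

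Laptm5, a lysosomal membrane protein of blood cells, had signals of 63.0, 129.6 and 280.4. Its other probe set was below the floor at 0 and 12 h and barely above it at 24 h, at 15.5. Leukocyte markers were examined beside it. Of 25 such genes on the array, Laptm5 was the only member, beside 0.622% of all genes, and nothing is read from that count. With Laptm5 included, 3 of 16 measured genes were at least 2-fold higher and 3 lower at 12 h, beside 17.7% and 27.3% of all genes. At 24 h over 12 h 4 of 15 were higher and 1 lower, beside 18.8% and 12.0%. Over time the summed signal of the 24 markers other than Laptm5 was 435, 464 and 682, and 9 of them were below the floor on all arrays. Among those below the floor on all 3 were Ptprc, which encodes the pan-leukocyte antigen CD45, and the macrophage genes Adgre1, Lyz2 and Itgam. Csf1r, the receptor of macrophage growth factor, had signals of 35.5, 25.5 and 28.9 and was not higher after culture. In the same list Mpeg1, a pore-forming protein of macrophages, went from below the floor to 94.5 and 104.5, a 24 h over 0 h ratio of at least 7.73-fold and the highest among the other 24. Fcgr2b, an Fc receptor, was above the floor at 12 h alone, at 31.4. The monocyte receptor Cd14 was at 74.2, 73.1 and 209.5. Whether leukocytes had a part in the signals of Laptm5, Lbp or Saa3 was not tested.

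Genes of growth arrest and of the answer to low oxygen contributed 5 members, including the 2 with the highest 24 h over 0 h ratios, Ndrg2 (at least 31.1-fold) and Cdkn1a. Cdkn1a encodes p21, an inhibitor of cyclin-dependent kinases that is a classical target of p53. It had signals of 15.1, 72.6 and 466, which is 4.80-fold higher at the first step, 6.42-fold at the second and 30.8-fold over both. The 0 h signal was just above the floor. A second Cdkn1a probe set had signals of 27.4, 50.9 and 281.5, with log2 ratios of 0.90 and 2.47. It too was higher at each step, although its first step fell short of 2-fold.

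Ddit4, which restrains mTOR signalling and is induced by low oxygen and other stress, had signals of 162, 609 and 2892. It was 3.75-fold higher at the first step and 4.75-fold at the second. Ndrg1, an intracellular protein induced by low oxygen and by differentiation, had signals of 88.4, 308 and 940.5, or 3.48-fold and then 3.06-fold higher. Its other probe set had signals of 72.9, 166.5 and 695 and log2 ratios of 1.19 and 2.06, and was the only other probe set of any member to be at least 2-fold higher at both steps. Ndrg2, of the same gene family, was below the floor before contact, then at 136 and 421, at least 10.04-fold and then 3.10-fold higher. Its other probe set had signals of 19.8, 72.1 and 129.3 and log2 ratios of 1.86 and 0.84. Bhlhe40, a transcriptional repressor of the circadian and low-oxygen responses, was below the floor and then at 31.1 and 92.6.

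For these genes, too, promoter letters are shown, because Cdkn1a and Ddit4 were the 2 members whose smaller step was largest. The hypoxia response element was searched as ACGTG on both strands. It was present in 7 of 33 member windows, or 21.2%, beside 19.6% of all windows. It lies inside the E-box CACGTG, which 3.03% of member windows and 7.15% of all windows hold. The p53 half-site was found in 3 member windows, those of Cdkn1a, Serpina3n and Sparc, or 9.09%, beside 8.36% of all. In these 2 sequences the capitals mark the hypoxia response element of Ddit4, starting 187 bases before the start site, and 2 matches to the p53 half-site in 1 of the RefSeq start-site windows of Cdkn1a, starting 73 and 51 bases before it.
Ddit4, chr10:59951771-59952020, strand minus: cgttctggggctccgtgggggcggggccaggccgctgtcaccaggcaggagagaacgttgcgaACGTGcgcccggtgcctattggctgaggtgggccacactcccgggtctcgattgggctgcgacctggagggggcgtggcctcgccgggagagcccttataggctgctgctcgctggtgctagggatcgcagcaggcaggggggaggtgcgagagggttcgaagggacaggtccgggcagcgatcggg
Cdkn1a, chr17:29090729-29090978, strand +: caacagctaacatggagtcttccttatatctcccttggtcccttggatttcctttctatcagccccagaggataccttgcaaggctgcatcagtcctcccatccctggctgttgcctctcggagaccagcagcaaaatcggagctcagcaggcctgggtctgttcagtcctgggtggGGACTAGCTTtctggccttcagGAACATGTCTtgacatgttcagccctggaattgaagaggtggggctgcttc

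**Figure D2:**
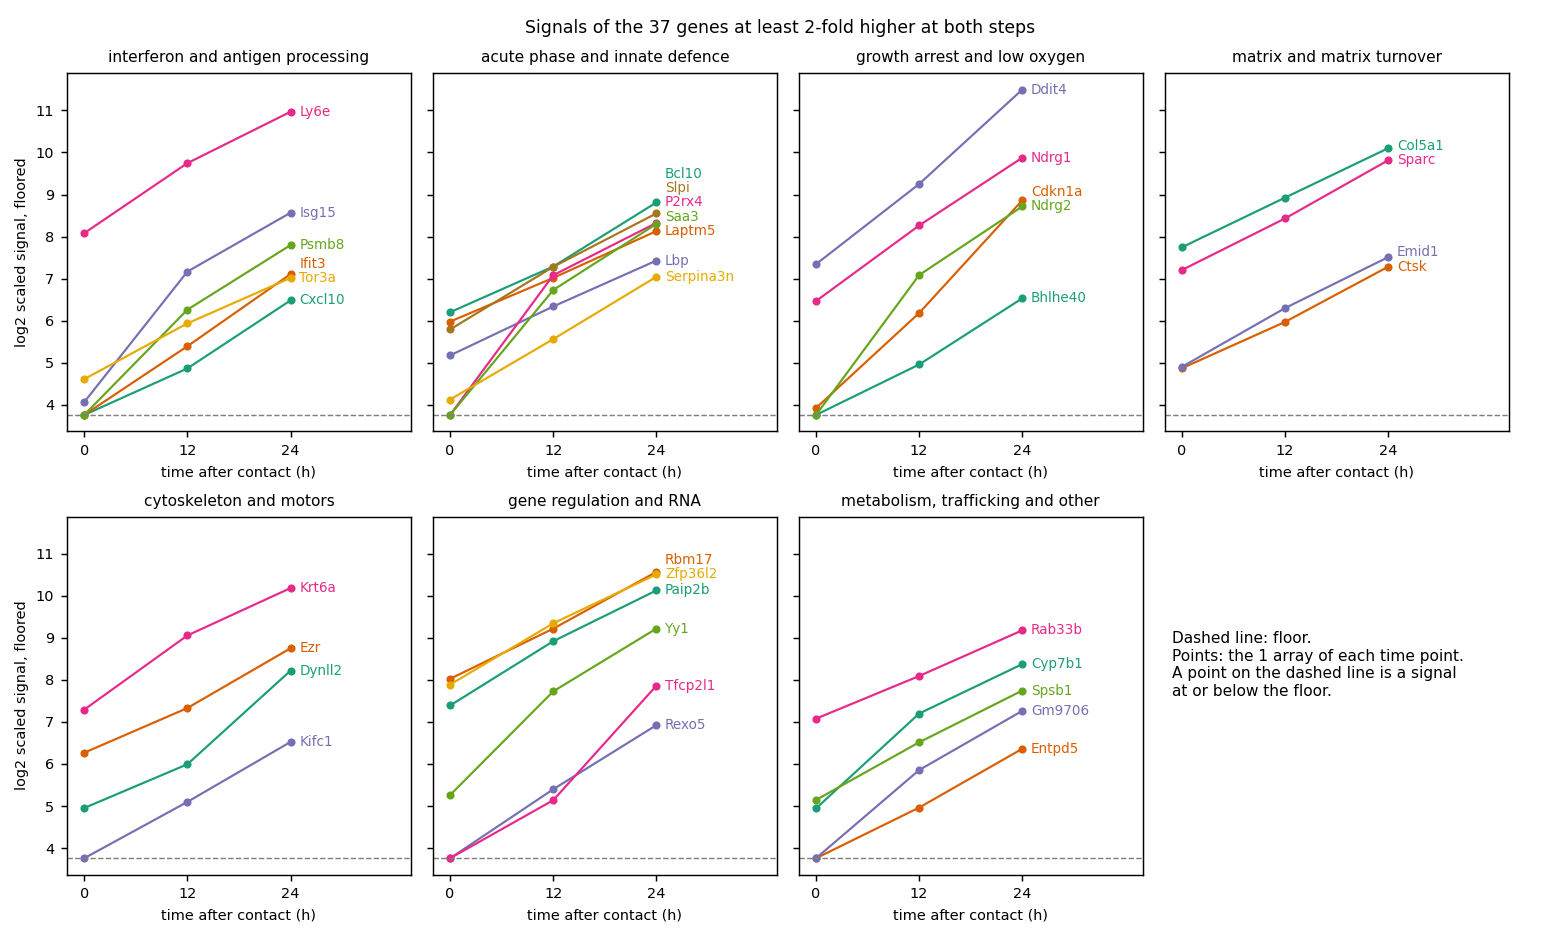
The log2 scaled signal, raised to the floor, is plotted against hours after contact for each member, with 1 panel per role and 1 array per time point; the dashed line is the floor. Lines that start on the dashed line belong to the 12 members with only a bound at 0 h, and Ddit4 ends at a signal of 2892.

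Extracellular matrix and its turnover accounted for 4 members, all above the floor on every array. Col5a1, a chain of the collagen that nucleates fibrils, had signals of 215, 487 and 1099.5. Sparc, a secreted collagen-binding glycoprotein, had signals of 147, 345 and 901. Ctsk, a cathepsin that degrades collagen, had signals of 29.2, 62.7 and 155.9, and Emid1, a secreted protein with an EMI domain, 29.9, 78.8 and 182.6. Their folds were modest and even, between 2.15-fold and 2.63-fold at each step. The second Col5a1 probe set, at 123.3, 85.2 and 103.8, was lower at 12 h than at 0 h, and that of Emid1, at 86.7, 42.5 and 117.9, was lower at 12 h and higher at 24 h. Palate mesenchyme also expresses matrix genes. Of 20 mesenchyme markers on the array none was a member, beside 0.622% of all genes, so nothing is read from that count. Their signals on the successive arrays summed to 6291, 11462 and 11230, which the brightest genes weight most. At 12 h 8 of 19 measured markers (42.1%) were at least 2-fold higher and 6 lower, with a median log2 ratio of -0.08. Over all genes 17.7% were higher and 27.3% lower at that step. At 24 h over 12 h 4 of 16 markers were higher and 2 lower, with a median of -0.17, beside 18.8% and 12.0% of all genes. Of the 20 markers 1, 5 and 5 were at the floor on the successive arrays. The part of mesenchymal cells in the signals of Col5a1 and Sparc was not tested.

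Cytoskeleton and motor genes accounted for 4. Krt6a, a keratin of activated and wounded stratified epithelium, had signals of 157, 532 and 1163 and was 3.40-fold and then 2.18-fold higher. Its other probe set, whose suffix marks possible cross-hybridization, had signals of 56.3, 24.8 and 246.7, lower at 12 h and higher at 24 h. Both sets were highest at 24 h, but they differ on the first step. Ezr, which links actin to the apical membrane, had signals of 77.0, 161 and 431. Dynll2, a light chain of dynein and myosin V, had signals of 31.0, 63.7 and 298.1, and its second step was 4.68-fold. A second Dynll2 set, at 23.5, 41.1 and 33.5, was not higher at 24 h than at 12 h. Kifc1, a minus-end-directed spindle motor, was below the floor and then at 34.3 and 92.1, and its only probe set carries a suffix for sequence shared within a family.

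Regulators of transcription and RNA numbered 6. Yy1, a zinc-finger factor that activates or represses many promoters, had signals of 38.3, 212 and 597, or 5.53-fold and then 2.82-fold higher. A second Yy1 set was below the floor on all arrays. Tfcp2l1, an epithelial transcription factor of the grainyhead-related family, was below the floor and then at 35.2 and 232.9, with the largest second step of all members at 6.61-fold. The remaining set had signals of 34.2, 42.1 and 28.6 and was lowest at 24 h, so the brightest set alone carries the difference. Zfp36l2, which promotes decay of AU-rich mRNAs, had signals of 237, 651 and 1458, while another of its sets went from 30.5 to 37.1 and 23.5. Rbm17, a splicing factor, had signals of 260.5, 596 and 1519, and Paip2b, an inhibitor of poly(A)-binding protein in translation, 168, 484 and 1119. Rexo5, an RNA exonuclease, was below the floor and then at 42.2 and 121.5. Rbm17, Paip2b and Rexo5 have no second probe set to compare.

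The last 5 members have no common role. Cyp7b1, an oxysterol hydroxylase, had signals of 30.8, 147 and 332, or 4.78-fold and then 2.26-fold higher, while its other set, at 24.0, 40.7 and 34.0, was highest at 12 h. Spsb1, an adaptor of an E3 ubiquitin ligase, had signals of 35.4, 91.5 and 215. The other Spsb1 set had 39.9, 131.4 and 136.9, with log2 ratios of 1.72 and 0.06, so that its second step was close to no difference. Rab33b, a small GTPase of the Golgi, had signals of 135.0, 272.9 and 579.8, with log2 ratios of 0.40 and 0.30 from its other set. Entpd5, a nucleotide phosphatase of the endoplasmic reticulum, was below the floor and then at 31.2 and 82.3. Gm9706 is listed as a pseudogene in the RefSeq gene table, was below the floor and then at 57.9 and 154, and is read by a set whose suffix marks a shared sequence family.

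The rule did not use the ratios of the other probe sets. It did use their signals, because the brightest set was chosen over them and all sets entered the scaling and the floor. They also come from the same 3 arrays. Of the 37 genes, 17 have 20 other sets, and 15 of these sets, in 13 genes, had a ratio at both steps. They were higher at both steps in 8 of 15 sets (53.3%), which belong to the 6 genes Cdkn1a, Ndrg1, Ndrg2, Rab33b, Slpi and Spsb1, with 3 sets for Slpi. The 3 Slpi sets were below the floor at 0 h, so their first steps are bounds. At 24 h they gave only 24.4, 35.9 and 33.5. Any ratio above 0 counts here, and the second step of Spsb1 was 0.06. Over all genes with several sets, 11.5% of 1091 such other sets were higher at both steps. A 2-fold difference at both steps was seen in 1 of the 15 and in 0.550% of the 1091. The median log2 ratio of the 15 sets was 0.65 at the first step and 0.47 at the second, beside -0.24 and 0.06 for the 1091. At 1 step or the other, 7 of the 15 sets, in Col5a1, Cyp7b1, Dynll2, Emid1, Krt6a, Tfcp2l1 and Zfp36l2, had the opposite direction. These shares describe 1 set of arrays and were not tested.

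**Figure D3:**
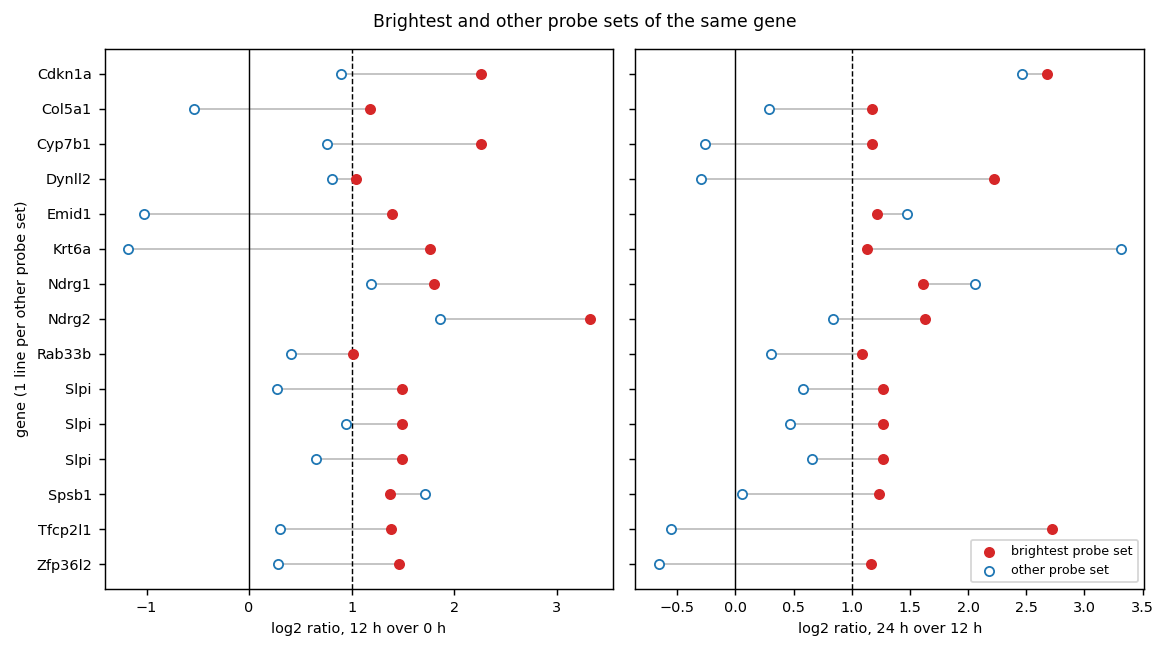
For each of 15 other probe sets in 13 member genes, the log2 ratio of the brightest set (filled) and of the other set (open) is shown at the first step on the left and at the second on the right; the solid line marks no difference and the dashed line 2-fold. Ndrg1 alone has both symbols beyond the dashed line at both steps, and open symbols left of the solid line are the 7 opposite values.

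The threshold divides a continuum. The members nearest to it by their smaller step were Rab33b (log2 1.02), Laptm5 (1.04), Dynll2 (1.04) and Ezr (1.06). Just outside lay Fbxw11, a ubiquitin ligase subunit (0.98), Ccdc80 (0.97), the adhesion molecule Ncam1 (0.96) and Cdkn2d, another cyclin-dependent kinase inhibitor (0.95), all short at the second step. Ncam1 had signals of 171, 579 and 1129, and Fbxw11 131, 456 and 902, series much like those of the members.

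The wider gene groups were examined for how often their measured members were at least 2-fold higher at each step. In the interferon list 21 of 34 genes were higher at 12 h and 2 lower, and 11 of 35 were higher at 24 h over 12 h and 0 lower, with median log2 ratios of 1.48 and 0.58. Igf2bp1, at 206, 51.8 and 70.9, is 1 of the 2 lower at 12 h. It entered in place of Zbp1 through a shared alias and is not an interferon gene, but these counts and medians include it. Over all genes 17.7% were at least 2-fold higher and 27.3% lower at 12 h. At 24 h over 12 h these shares were 18.8% and 12.0%. Of the 36 interferon genes on the array 24 were at the floor at 0 h, while 5878 of all 8251 genes were above it. A gene at the floor at 0 h has a first ratio only if it was above the floor at 12 h. That ratio is a lower bound and cannot count as lower, so the list and all genes are not compared like for like. The median of 1.48 therefore includes bounds, and the same limit holds for such genes in the other lists. Isg15, Ifit3, Cxcl10 and Psmb8 were the 4 genes of that list that passed both steps. Other genes of the list passed the first step alone, for example Gbp3, Ifih1 and Usp18. Gbp3, an interferon-inducible GTPase, had the highest 24 h over 0 h ratio of the list, at least 79.3-fold, with signals from below the floor to 707 and 1072. Usp18, which removes Isg15 from proteins, went from below the floor to 107 and 148, and Ifih1, a sensor of viral RNA, from below the floor to 167 and 177. In the list of class I antigen presentation 4 of 12 genes were higher at 12 h and 6 of 13 at 24 h over 12 h, with 2 and 0 lower and medians of 0.66 and 0.87.

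The list of inflammation, NF-kB and chemokines had 9 of 22 genes higher at 12 h and 9 of 23 higher at 24 h over 12 h, with 1 lower at each step and medians of 0.34 and 0.76, and Saa3 was its member. Ccl7, a monocyte chemokine, narrowly missed the second step, with signals from below the floor to 154 and 285.5. In the list of hypoxia and glycolysis 11 of 30 genes were higher at each step, with 6 and then 2 lower and medians of 0.20 and 0.75, and Ddit4, Ndrg1 and Bhlhe40 were members. Pigq, at 63.2, 17.7 and then below the floor, is 1 of the 6 lower at 12 h. It entered in place of Gpi1 through a shared alias and is not a glycolytic gene, but these counts and medians include it. Aldoa, a glycolytic aldolase, had signals of 224, 767 and 1346 and was 0.81 higher on the log2 scale at the second step. The glycolytic kinase Pgk1, at 362, 2734 and 2303, was high at 12 h and not higher at 24 h. The list of p53 targets and apoptosis had 7 of 30 genes higher at each step, with 5 and then 3 lower and medians of 0.17 and -0.07, and Cdkn1a was its member. The p53 targets Mdm2, at 71.4, 112.6 and 97.1, and Ccng1, at 22.99, 119.7 and 46.0, were both lower at 24 h than at 12 h. From the same list Gadd45b, at 59.2, 63.8 and 314.0, and Ei24, at 289.9, 300.5 and 737.5, were both higher at 24 h than at 12 h. These genes were picked after their values were seen, and a part of p53 in the signals of Cdkn1a was not tested.

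For the lists closer to the seam itself, the share of all genes that were members, 0.622%, applies only to counts of members. Counts at 1 step stand beside the shares over all genes: 17.7% higher and 27.3% lower at 12 h, then 18.8% higher and 12.0% lower at 24 h over 12 h. Of 43 measured genes of epithelial differentiation 17 were higher at 12 h and 6 lower, and of 42 measured 12 were higher and 9 lower at 24 h over 12 h; the medians were 0.57 and 0.10, and Krt6a was the member. Extracellular matrix had 11 of 29 genes higher and 9 lower at 12 h, then 13 of 30 higher and 2 lower, with medians of -0.16 and 0.74 and Col5a1 and Sparc as members. Col1a2, a chain of type I collagen, had signals of 289, 1711 and 3224 and missed the rule at the second step with a log2 ratio of 0.91. Matrix proteases and cathepsins had 13 of 28 higher and 6 lower at 12 h, then 6 of 29 higher and 3 lower, with medians of 0.51 and 0.41 and Ctsk as member. The lists of epithelial-mesenchymal transformation (10 of 32 higher at 12 h, 5 of 30 at 24 h over 12 h) and of immediate early and stress genes (5 of 30 and 6 of 31) held 0 members. Transformation genes had 4 and then 6 lower and medians of 0.39 and 0.07, and immediate early genes 11 and then 7 lower and medians of -0.37 and 0.07. Markers of palate mesenchyme, epithelium, endothelium, erythroid cells, skeletal muscle, neural cells, and bone and cartilage also held 0 members. With lists this short and so small a share of members among all genes, nothing is read from a count of 0. These lists were chosen with earlier results of these arrays known.

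**Figure D4:**
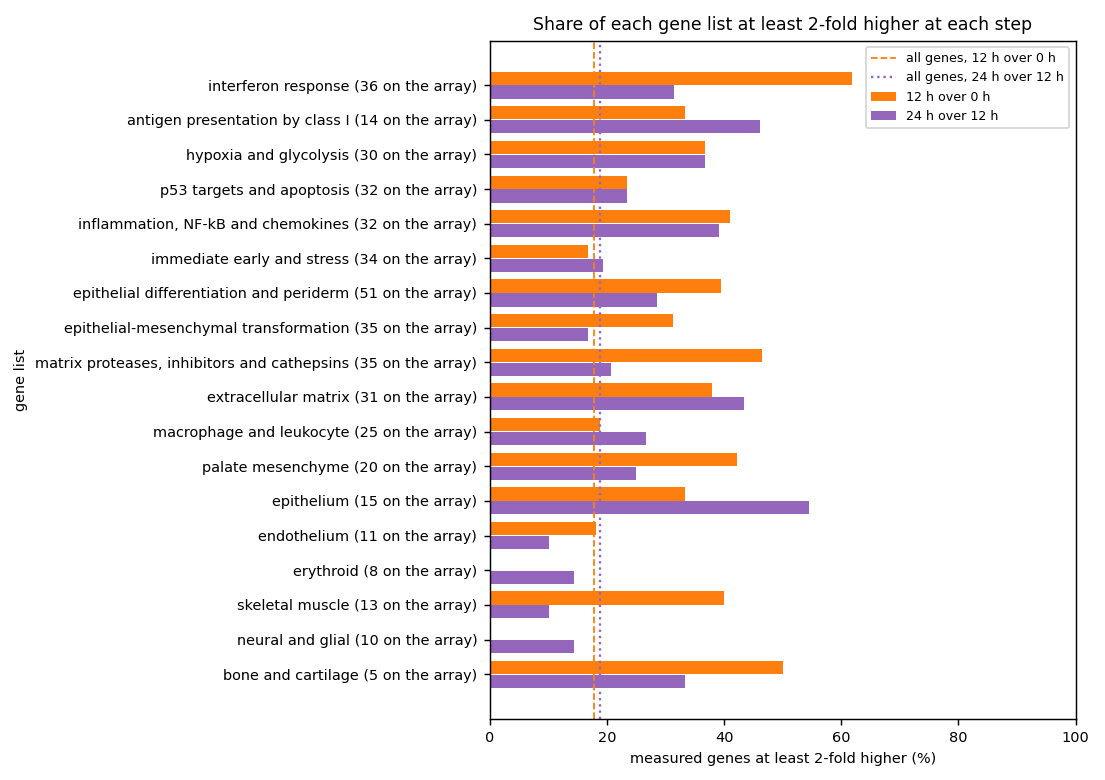
Bars give the percent of measured genes of each list that were at least 2-fold higher at 12 h over 0 h (upper bar) and at 24 h over 12 h (lower bar), and vertical lines give the same over all genes, 17.7% and 18.8%. Interferon response has the longest upper bar, at 61.8%, but 24 of its 36 genes were at the floor at 0 h. Such genes could not count as lower at 12 h. Short lists such as bone and cartilage rest on few measured genes. The interferon and hypoxia bars include Igf2bp1 and Pigq, which entered these lists through shared aliases.

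Processing decided which genes passed both steps. Under 8 alternatives of scaling, floor and choice of probe set, 7 genes met the rule every time: Cdkn1a, Ddit4, Isg15, Ndrg1, Ndrg2, Psmb8 and Saa3. Not every alternative could end a call. A lower floor or none can only raise the first step of a member, and a gene with 1 unsuffixed probe set, as Ddit4, Isg15, Psmb8 and Saa3 have, keeps its values when sets are averaged or suffixed sets removed. A further 11, among them Bcl10, Bhlhe40, Cxcl10, Ezr, Ifit3, P2rx4, Sparc and Yy1, met it under 7 of 8. Laptm5 and Tor3a met it under 3, and Col5a1, Cyp7b1 and Rab33b under 4. The brightest set of 8 members (21.6%) carries a suffix treated here as a mark of possible cross-hybridization, beside 13.0% over all genes: Rab33b, Laptm5, Spsb1, Emid1, Kifc1, Ly6e, Cyp7b1 and Gm9706. The names of these 8 sets all end in _f_at, while the share over all genes also counts _s_at, _g_at, _i_at and _r_at.

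**Figure D5:**
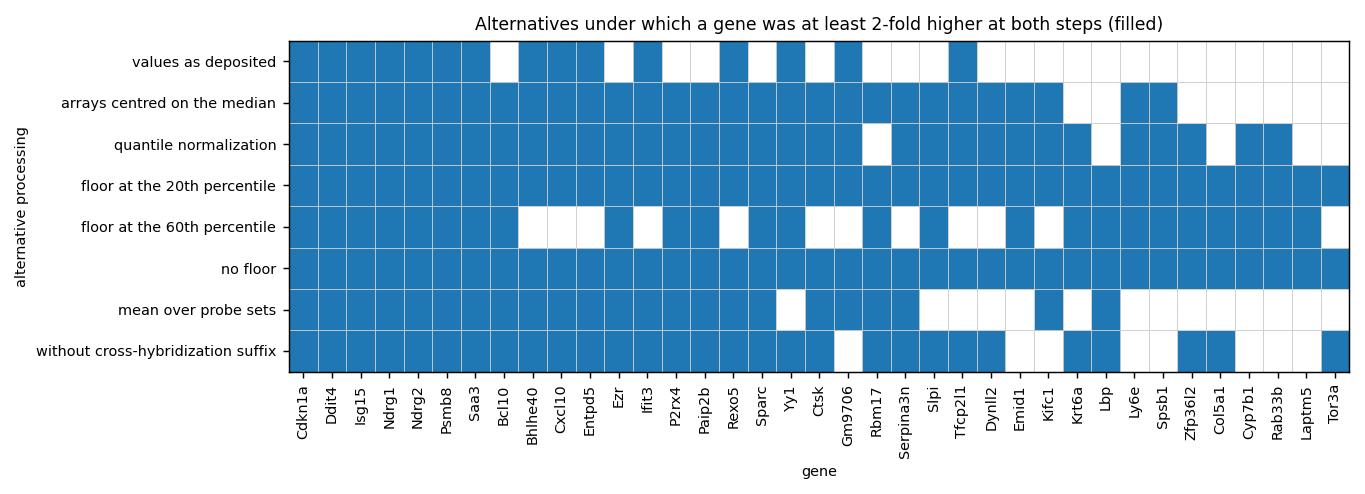
Columns are the 37 members and lines are 8 alternative ways of processing; a filled cell means that the gene was still at least 2-fold higher at both steps, and an open cell that it was not or that no probe set remained. The 7 columns at the left are filled throughout, and values as deposited and the mean over probe sets leave the most open cells.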

How the data were processed

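RNA from palate epithelium at 0, 12 and 24 h was measured on 1 one-colour Affymetrix array per time point. Per the labels, Microarray Suite 5.0 and GeneSpring 6.0 were used by the authors; the program that wrote the values and any scaling were not given in the sources used here. Deposited values are linear intensities, 1 per probe set, without detection calls. Of 12422 non-control probe sets, 10833 name 1 gene, 396 several and 1193 none; gene identifiers of 10817 matched the RefSeq gene table (GRCm38.p6), which gave symbols. Scaling, floor and the membership rule are as the report states. A signal at the floor gives a bound. The members and all lists were chosen with earlier results of these data known, and roles were assigned after the members were seen. All members are named, with the 4 genes nearest outside the rule and, from some lists of pathways, 1 to 3 of the 4 further genes with the highest 24 h over 0 h ratio. Mdm2, Ccng1, Gadd45b, Ei24 and the named markers of epithelium and leukocytes, which exceed 4 per list, were picked after their values were seen. Igf2bp1 and Pigq are named because they entered lists through shared aliases. No comparison between time points was tested, since none has a second array; the small number of arrays limits precision. The script that applies the rule was checked on simulated data. Promoter windows are from RefSeq. Alternatives were other scalings, a floor at the 20th or 60th percentile or none (signals under 1 set to 1), the mean over probe sets, removal of sets with a cross-hybridization suffix, a 3-fold rule and each other probe set. Python 3.11.15, numpy 2.4.6 and pandas 2.3.3 were used.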

Additional observations from a re-analysis of the deposited data

How the results depend on the processing

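The count of genes at least 2-fold higher at both steps was 37. It was 15 with values as deposited, 23 with the mean over probe sets, 73 without a floor and 5 under a 3-fold rule. Under the other alternatives it stayed within 1.5 times of 37: 33 after median centring, 45 after quantile normalization, 54 and 25 with floors at the 20th and 60th percentile, and 29 without suffixed probe sets. Of the 37 genes, 29 were called after median centring and 32 after quantile normalization, with 4 and 13 others. Their median log2 ratio lay between 0.98 and 1.75 at the first step and between 1.09 and 1.42 at the second. Single ratios turned negative at the first step for Emid1 with values as deposited (-1.72), where another probe set was the brightest, for Emid1 without suffixed sets (-1.03), and in other probe sets of Col5a1 (-0.53), Emid1 (-1.03) and Krt6a (-1.18). At the second step they did so for Cyp7b1 without suffixed sets (-0.26) and in other sets of Cyp7b1 (-0.26), Dynll2 (-0.30), Tfcp2l1 (-0.56) and Zfp36l2 (-0.66). The cause was not tested. No paired analysis was possible because each time point has 1 array, and no array could be left out for the same reason.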
